A study of Homo sapiens with 6 samples.

Results

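The genes described here are 34 interferon-stimulated genes, chosen by name from the 58735 gene IDs of a read count table and matched through GENCODE release 29. They were measured in HCT116, an established human colorectal carcinoma line, in 3 libraries from cells that overexpressed SETD8 and 3 from cells with an empty vector. SETD8 adds methyl groups to lysines of histones and other proteins, and its gene is listed as KMT5A. Both populations were transduced with lentivirus and selected with puromycin as stable clones per the labels, while the design text speaks of transfection, and the labels give no number of clones and no time since selection. Both groups share virus and selection, and no untransduced cells were compared. The labels do not state whether a group's 3 libraries stem from 3 cultures, and p-values then reflect only the spread among libraries, which may be technical.

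Interferons are cytokines that cells release when they sense viral nucleic acid. Type I and type III interferons signal through the kinases JAK1 and TYK2 to the factor ISGF3, which contains STAT2 and IRF9. ISGF3 binds the interferon-stimulated response element (ISRE) in promoters of genes that block entry, replication or translation of viruses, and many of these genes also have a basal level in unstimulated epithelial cells.

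Promoter windows of RefSeq (build GRCh38.p14, 250 bases before to 50 after a start) are shown for the 5 genes that passed the test. IFIT3 is added as an example of the IFIT family. The windows show which of these genes hold a match to the ISRE letters searched. Capitals mark each match to the motif searched, GAAA followed by any 2 bases and GAAA, on either strand, so that a match in the other orientation begins and ends with TTTC. All are written 5′ to 3′ on the strand of the gene. The window of IFI6 is chr1:27672143-27672442 (minus strand), that of IFITM3 chr11:320811-321110 (minus strand), that of IFI35 chr17:43006534-43006833 (plus strand), that of ISG20 chr15:88638766-88639065 (plus strand), that of IFIT3 chr10:89327747-89328046 (plus strand) and that of MX1 chr21:41420308-41420607 (plus strand). IFIT3 has 2 windows and MX1 has 3, and the first is shown.
IFI6: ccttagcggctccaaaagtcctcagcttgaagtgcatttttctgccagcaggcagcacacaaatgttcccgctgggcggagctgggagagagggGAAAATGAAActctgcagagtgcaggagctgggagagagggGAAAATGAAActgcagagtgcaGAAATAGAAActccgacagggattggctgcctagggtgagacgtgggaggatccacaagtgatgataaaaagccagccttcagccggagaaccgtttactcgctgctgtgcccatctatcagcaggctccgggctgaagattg
IFITM3: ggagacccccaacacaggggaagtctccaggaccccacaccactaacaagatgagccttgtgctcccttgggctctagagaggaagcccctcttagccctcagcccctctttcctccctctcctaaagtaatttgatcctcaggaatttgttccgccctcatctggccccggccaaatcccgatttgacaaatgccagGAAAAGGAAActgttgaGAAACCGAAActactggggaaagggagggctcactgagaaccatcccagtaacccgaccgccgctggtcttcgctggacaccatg
IFI35: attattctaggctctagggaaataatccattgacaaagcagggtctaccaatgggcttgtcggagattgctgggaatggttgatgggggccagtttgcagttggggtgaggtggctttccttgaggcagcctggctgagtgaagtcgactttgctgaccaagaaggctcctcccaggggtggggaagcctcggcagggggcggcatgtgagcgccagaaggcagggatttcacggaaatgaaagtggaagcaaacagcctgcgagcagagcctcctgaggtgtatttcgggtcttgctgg
ISG20: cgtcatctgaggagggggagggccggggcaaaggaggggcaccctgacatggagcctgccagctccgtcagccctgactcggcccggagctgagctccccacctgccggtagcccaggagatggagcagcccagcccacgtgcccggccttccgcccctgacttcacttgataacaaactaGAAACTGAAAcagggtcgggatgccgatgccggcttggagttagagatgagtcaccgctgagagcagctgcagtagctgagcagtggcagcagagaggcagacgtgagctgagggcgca
IFIT3: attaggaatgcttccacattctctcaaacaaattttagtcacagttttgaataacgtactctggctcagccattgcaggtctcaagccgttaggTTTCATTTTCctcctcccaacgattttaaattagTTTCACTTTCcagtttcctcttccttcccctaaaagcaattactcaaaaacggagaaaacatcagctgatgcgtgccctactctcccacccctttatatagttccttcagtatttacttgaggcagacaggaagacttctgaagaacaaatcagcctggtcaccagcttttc
MX1: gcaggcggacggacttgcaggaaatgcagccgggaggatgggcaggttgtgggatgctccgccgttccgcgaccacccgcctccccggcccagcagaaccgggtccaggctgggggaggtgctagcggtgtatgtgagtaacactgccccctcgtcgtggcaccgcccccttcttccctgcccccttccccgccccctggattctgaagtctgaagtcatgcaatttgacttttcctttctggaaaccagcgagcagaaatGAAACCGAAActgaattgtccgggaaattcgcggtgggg

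The IFI6 window held 3 matches, at 156, 115 and 93 bases before the start, and the first and second shared the letters GAAAATGAAA. IFITM3 had 2 matches, IFIT3 had 2, ISG20 had 1, and IFI35 had 0 in these letters. MX1 had 1 match in this window, after the start. Of 29 matched members, 19 (65.5%) held the motif in at least 1 window, against 1195 of 27305 genes (4.38%). PARP9 and DTX3L, neighbours that point away from each other, share a match, GAAACTGAAA at chr3:122564332-122564341. The interferon gamma element TTCNNNGAA, which reads the same on both strands, was in 8 of 29 members (27.6%) and in 9.38% of all genes. The promoters of IFIT2, IRF7, IFITM2, USP18 and PML were not analysed here. The motifs can share the letters GAA. Forms with other than 2 bases between the GAAA groups were not searched, so a gene without a match may hold such a form. A match of letters is a description and not a measured binding site.

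The libraries held 17056672 to 18785454 counted reads with SETD8 and 17187722 to 20471843 with the vector. Levels are given in CPM, the read count scaled to library size with TMM factors. A count of 3 corresponded to 0.150 to 0.174 CPM, a floor that covers counting error only. Vector replicate 3 stood apart in that mitochondrial transcripts took 7.77% of its counts, against 4.91% to 5.36% in SETD8 libraries and 5.95% and 6.08% in the other vector libraries. The sum of 8 epithelial markers was 11263 to 12719 CPM with SETD8 and 10772 to 13286 CPM with the vector. LGR5 had 0 counts in each library, and 6 of the 8 were tested, of which 1 passed, where 7.83% of all genes did. The 10 immune markers summed to 0.953 to 1.76 CPM with SETD8 and 2.07 to 4.21 CPM with the vector. Of these, ITGAX passed the test as lower, and PTPRC, CD3E, CLEC4C, LILRA4 and NKG7 were at 0 counts in each library. The 7 fibroblast markers summed to 3.50 to 4.83 CPM with SETD8 and 4.80 to 7.20 CPM with the vector, and the 5 endothelial markers to 1.11 to 1.96 and 1.25 to 2.36 CPM. The defining immune markers were thus at 0, and the part of the mitochondrial share in any result was not tested. KMT5A, the overexpressed gene, had 65.4, 66.2 and 75.5 CPM in SETD8 replicates 1, 2 and 3, against 46.0, 47.3 and 53.9 CPM in vector replicates 1, 2 and 3 (log2 fold change 0.49, SE 0.10, edgeR adjusted p = 0.0156). This call was lost when SETD8 replicate 1, 2 or 3 was left out (edgeR adjusted p = 0.0661, 0.0579 and 0.0949) and when vector replicate 2 was (0.0965). KMT5A is uncertain in that 22.2% of the 50-base windows of its longest transcript also occur in SETD8P1 or another gene. In bulk RNA, fewer cells that express a gene and less RNA per cell cannot be told apart.

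SETD8 overexpression was accompanied by a rise of 4 interferon-stimulated genes, IFI6, IFITM3, IFI35 and ISG20, and by a fall of MX1, while 28 of 33 tested members did not pass the test. IRF9 was not tested because its counts were too low. The 5 calls were 15.2% of the tested members, against 7.83% of all 14370 genes (3.08% higher and 4.75% lower; edgeR quasi-likelihood test, adjusted p under 0.05). The members were chosen with earlier results of these data known, so the gap to all genes is not a test of the list. Of 37 tested interferon-stimulated genes outside the members, 2.70% were called. The groups did not overlap in 14 tested members (42.4%), 8 higher and 6 lower, against 30.3% of all genes (14.4% higher and 15.9% lower). An unadjusted p under 0.05 was reached by 11 tested members (33.3%) and by 26.0% of all genes. The median log2 fold change of SETD8 over vector was 0.043 over the tested members, with 17 above 0 and 16 below, and 0.00047 over all genes. Summed over members, the level was 2733 ± 50.8 CPM in SETD8 libraries and 2666 ± 141 CPM in vector libraries (SD, n = 3 each), so with TMM scaling the sums differed by less than the SD of the vector group. With library totals in place of TMM the groups did not overlap, with 2786, 2829 and 2697 CPM in SETD8 replicates 1, 2 and 3, against 2669, 2667 and 2530 CPM in vector replicates 1, 2 and 3. Scaling by library totals moved the calls over all genes to 792 higher and 505 lower, from 443 and 682, and gave 4 higher and 0 lower members. The calls over all genes were few without SETD8 replicate 1 (1 higher and 10 lower), SETD8 replicate 2 (45 and 110), SETD8 replicate 3 (45 and 84) or vector replicate 2 (25 and 47), and many without vector replicate 1 (1771 and 1738). The 4 members that rose have short principal transcripts of 808 to 1856 bases and MX1 has 3470 bases. The length correction used the longest transcript, which for ISG20 has 5634 bases against 1856 for the principal one. After this correction each of the 5 kept its call. Whether transcript length has a part in the remaining difference was not tested.

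**Figure D1:**
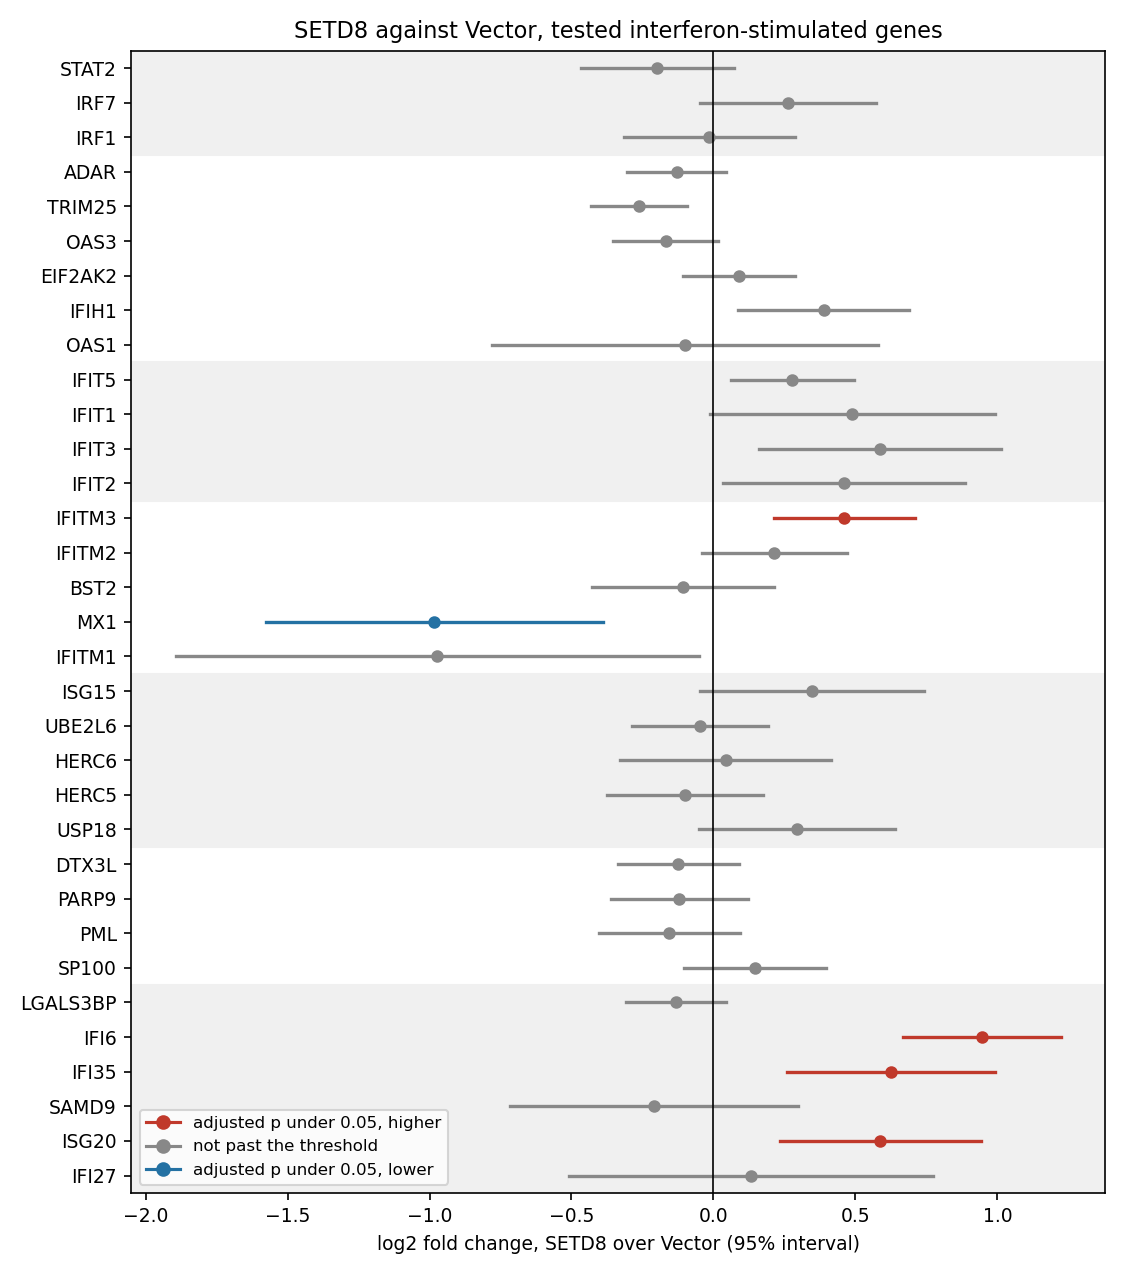
Log2 fold change of SETD8 over vector for the 33 tested members, in bands by role, with 95% intervals from the edgeR fit. Red points passed the test as higher (IFI6, IFITM3, IFI35 and ISG20), the blue point passed as lower (MX1) and grey points did not pass.

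IFI6 encodes a small membrane protein that limits apoptosis and the replication of flaviviruses. The gene (ENSG00000126709) spans bases 27666061 to 27672218 of chromosome 1 in GRCh38. IFI6 had 49.5, 52.3 and 56.2 CPM in SETD8 replicates 1, 2 and 3, against 32.0, 27.9 and 22.1 CPM in vector replicates 1, 2 and 3. Every SETD8 library lay above every vector library, and vector replicate 3 was the lowest. The means were 52.7 ± 3.37 CPM with SETD8 and 27.3 ± 4.99 CPM with the vector (SD, n = 3 each), a 1.92-fold rise (log2 fold change 0.94, 95% interval 0.67 to 1.22, edgeR adjusted p = 0.00438). IFI6 was called under each of the 15 alternatives run, with a log2 fold change of 0.75 to 1.07, and it was the only member that kept its call whichever of the 6 libraries was left out (highest edgeR adjusted p = 0.0415). Without SETD8 replicate 1 it was the single gene called higher among 14734 tested.

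**Figure D2:**
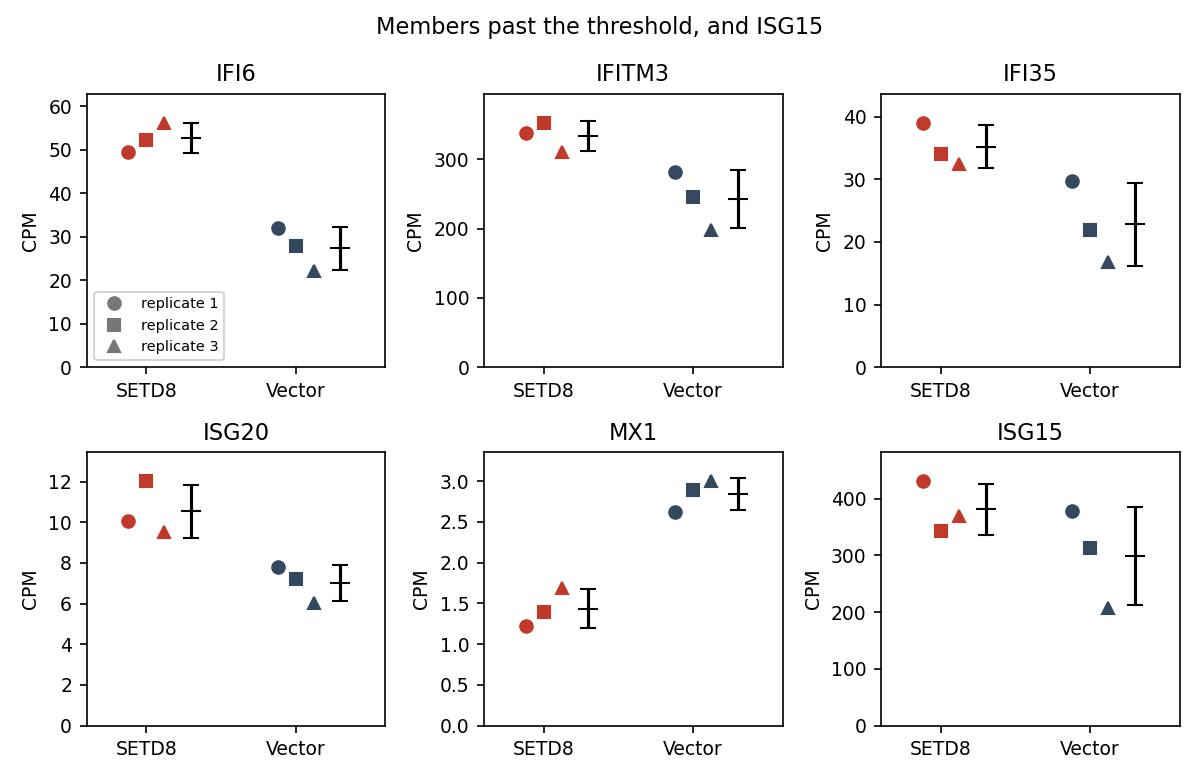
CPM in each library for the 5 members that passed the test and for ISG15, with SETD8 libraries left and vector libraries right. Symbols mark replicates and black bars give the mean and SD of 3 libraries. The groups do not overlap for IFI6, IFITM3, IFI35, ISG20 and MX1, whereas the SETD8 and vector points of ISG15 overlap.

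IFI35 encodes a cytoplasmic protein that forms complexes with NMI. It had 39.0, 34.1 and 32.5 CPM in SETD8 replicates 1, 2 and 3, against 29.8, 21.9 and 16.8 CPM in vector replicates 1, 2 and 3. The groups did not overlap, and vector replicate 1 lay nearest to the SETD8 libraries. IFI35 rose 1.54-fold (log2 fold change 0.62, SE 0.17, edgeR adjusted p = 0.0428). ISG20 encodes an exonuclease that degrades single-stranded RNA. It had 10.1, 12.0 and 9.54 CPM with SETD8, against 7.79, 7.19 and 6.05 CPM with the vector, and it rose 1.50-fold (log2 fold change 0.59, SE 0.16, edgeR adjusted p = 0.0457). IFI35 lost its call when SETD8 replicate 1, 2 or 3 was left out (edgeR adjusted p = 0.171, 0.114 and 0.110) and when vector replicate 2 was (0.158). ISG20 lost its call when SETD8 replicate 1, 2 or 3 was left out (edgeR adjusted p = 0.129, 0.176 and 0.103) and when vector replicate 2 or 3 was (0.147 and 0.0890).

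The IFITM genes encode membrane proteins that hinder the fusion of enveloped viruses, and they lie side by side on chromosome 11. IFITM3 (319669 to 327537) had 339, 353 and 310 CPM in SETD8 replicates 1, 2 and 3, against 282, 246 and 199 CPM in vector replicates 1, 2 and 3. No SETD8 library was as low as any vector library. IFITM3 rose 1.38-fold (log2 fold change 0.46, SE 0.12, edgeR adjusted p = 0.0312). IFITM2 had 66.3, 76.8 and 71.8 CPM with SETD8 and 69.1, 66.0 and 50.1 CPM with the vector, so the groups overlapped and it did not pass (log2 fold change 0.21, edgeR adjusted p = 0.270). IFITM1 had 10 to 13 counts in SETD8 libraries and 14 to 37 in vector libraries (log2 fold change -0.97, 95% interval -1.89 to -0.05, edgeR adjusted p = 0.170). The difference between IFITM3 and its neighbours was not tested. In the longest transcripts, 20.3% of the 50-base windows of IFITM3 also occurred in another gene, as did 15.8% of those of IFITM2 and 12.2% of those of IFITM1, and 41.1% of the principal IFITM1 transcript lies under exons of IFITM2. The split of reads between these genes is therefore uncertain. The IFITM3 log2 fold change was 0.27 with length correction. Its call was lost when SETD8 replicate 1, 2 or 3 was left out (edgeR adjusted p = 0.127, 0.126 and 0.0914) and when vector replicate 2 was (0.116).

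MX1 and BST2 act at other steps of infection. MX1, a dynamin-like GTPase that blocks incoming viral nucleocapsids, lies on chromosome 21 from 41420304 to 41459214 and was near the low end of what could be tested. It had 23, 27 and 29 counts in SETD8 replicates 1, 2 and 3, against 48, 58 and 52 in vector replicates 1, 2 and 3. The means were 1.43 ± 0.24 CPM with SETD8 and 2.84 ± 0.20 CPM with the vector (SD, n = 3 each), and the groups did not overlap. MX1 was 1.98-fold lower with SETD8 (log2 fold change -0.98, SE 0.28, edgeR adjusted p = 0.0467). Its call was lost with library totals (edgeR adjusted p = 0.0520) and with DESeq2 (adjusted p = 0.0650). The MX1 call was also lost when SETD8 replicate 1, 2 or 3 was left out (edgeR adjusted p = 0.168, 0.131 and 0.102) and when vector replicate 2 or 3 was (0.157 and 0.0922). BST2, which tethers budding virions, had 11.6 to 13.6 CPM with SETD8 and 11.5 to 15.7 CPM with the vector (log2 fold change -0.11, 95% interval -0.43 to 0.21, edgeR adjusted p = 0.684).

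The 4 IFIT genes, whose products bind viral RNA ends or inhibit translation, lie in a cluster on chromosome 10. Each had a positive log2 fold change and 0 of 4 passed edgeR, DESeq2 or limma-voom, although 3 had an unadjusted edgeR p under 0.05. IFIT5 had 37.7, 36.1 and 33.8 CPM in SETD8 replicates 1, 2 and 3, against 30.0, 30.3 and 28.5 CPM in vector replicates 1, 2 and 3 (log2 fold change 0.28, SE 0.10, edgeR adjusted p = 0.105). IFIT3 had 11.8, 7.82 and 8.84 CPM with SETD8 and 5.94, 7.63 and 5.30 CPM with the vector (log2 fold change 0.59, SE 0.20, edgeR adjusted p = 0.0848). In IFIT5, IFIT3 and IFIT2 every SETD8 library lay above every vector library, as in 14.4% of all genes. IFIT2 stood at 6.49 ± 0.63 CPM with SETD8 and 4.71 ± 0.92 CPM with the vector (SD, n = 3 each; log2 fold change 0.46, edgeR adjusted p = 0.162). IFIT1 overlapped between groups, with 11.4 ± 1.97 CPM with SETD8 and 8.06 ± 3.01 CPM with the vector (log2 fold change 0.49, edgeR adjusted p = 0.204), and vector replicate 2 at 11.2 CPM stood among the SETD8 libraries. The IFIT1 log2 fold change ran from 0.25 to 0.82 when 1 library was left out. When genes of low count were kept in, IFIT3 was called (edgeR adjusted p = 0.0280).

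**Figure D3:**
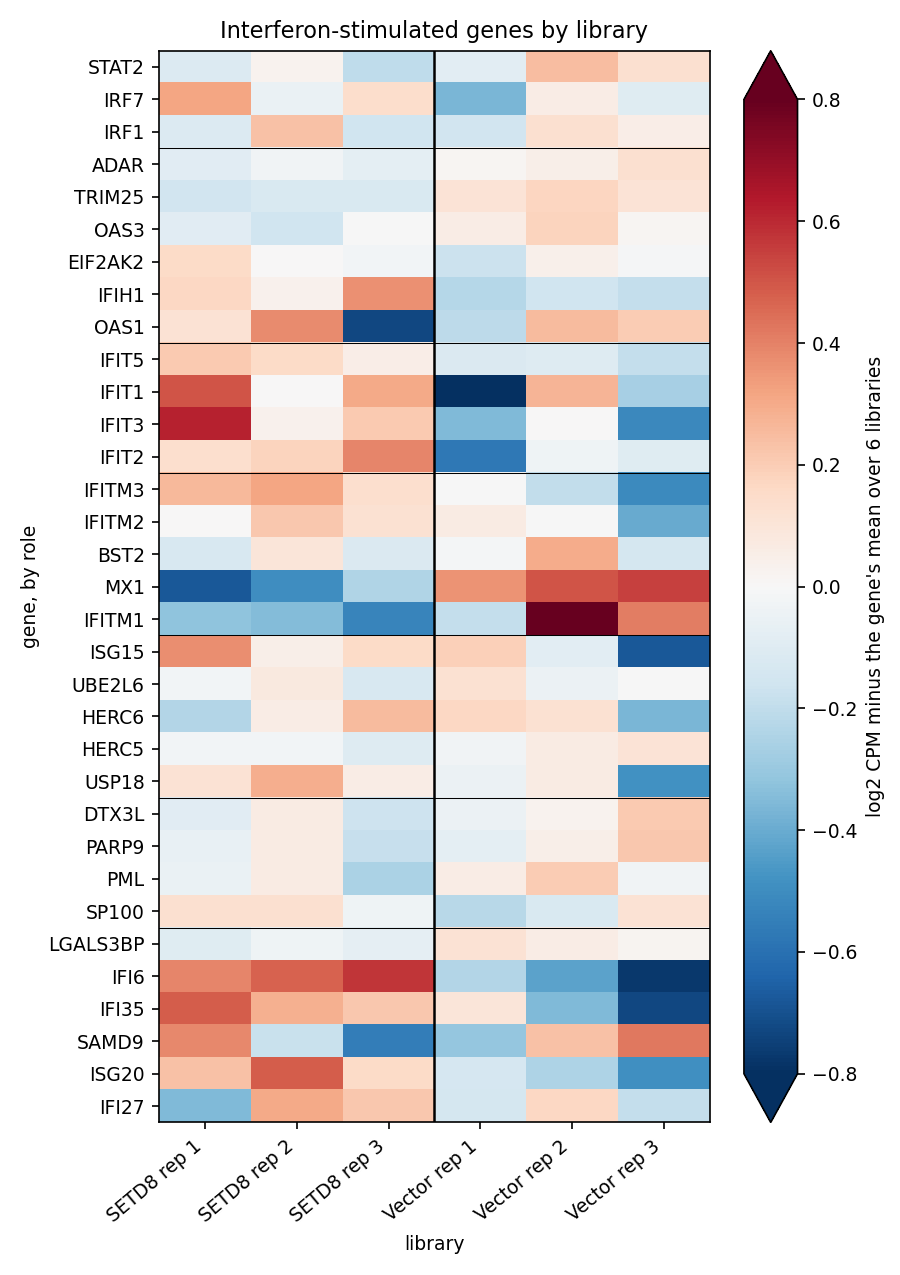
Log2 CPM of each tested member minus its mean over the 6 libraries, with SETD8 libraries left of the black line and vector libraries right of it, and genes grouped by role. IFI6 is above its mean in the 3 SETD8 libraries and MX1 below. ISG15, IFI6, IFITM3, IFI35 and ISG20 are lowest in vector replicate 3, and IFIT1 and IFIT2 in vector replicate 1.

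ISG15 is a ubiquitin-like protein that is attached to newly made proteins, with UBE2L6 as conjugating enzyme, HERC5 as ligase in human cells and USP18 as the protease that removes it. None of the 5 genes of this group passed edgeR, DESeq2 or limma-voom, and 0, 0 and 1 had an unadjusted p under 0.05. By edgeR, 26.0% of all genes had one. ISG15 had 431, 344 and 370 CPM in SETD8 replicates 1, 2 and 3, against 379, 313 and 207 CPM in vector replicates 1, 2 and 3. The vector libraries were widely spread, with replicate 1 among the SETD8 libraries and replicate 3 far below (log2 fold change 0.35, 95% interval -0.05 to 0.74, edgeR adjusted p = 0.245). ISG15 passed without vector replicate 1 (log2 fold change 0.55, edgeR adjusted p = 0.0202) and when genes of low count were kept in (0.35, edgeR adjusted p = 0.0341), and its log2 fold change was 0.14 without vector replicate 3 and 0.16 with length correction. Leaving out vector replicate 1 gave 1771 of all 14715 genes called higher, against 443 of 14370 in the main test. UBE2L6 had 24.5, 26.3 and 22.7 CPM with SETD8, against 27.1, 24.1 and 24.8 CPM with the vector (log2 fold change -0.05, 95% interval -0.29 to 0.19). HERC5 (log2 fold change -0.10) and HERC6 (0.04), a neighbouring gene of related sequence, had 11.8 ± 0.39 and 12.7 ± 2.15 CPM with SETD8. With the vector they had 12.7 ± 0.61 and 12.3 ± 2.39 CPM (SD, n = 3 each). USP18 stood at 12.9 ± 1.10 CPM with SETD8 and 10.5 ± 2.03 CPM with the vector (SD, n = 3 each; log2 fold change 0.30, edgeR adjusted p = 0.260), and is uncertain because 23.4% of the 50-base windows of its longest transcript occur in other genes, USP41 among them.

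Among genes of RNA sensing and translation control, 0 of 6 passed edgeR or limma-voom and 1 passed DESeq2. TRIM25, a ubiquitin ligase known for activating the sensor RIG-I, had 331, 338 and 338 CPM in SETD8 replicates 1, 2 and 3, against 397, 413 and 397 CPM in vector replicates 1, 2 and 3. The groups were tight and did not overlap (log2 fold change -0.26, SE 0.08, edgeR adjusted p = 0.0581). TRIM25 passed DESeq2 (adjusted p = 0.0214), edgeR with GC correction (0.0434) and edgeR without vector replicate 1 or 3 (0.0264 and 0.0266). Without vector replicate 1, 1738 of all 14715 genes were called lower, against 682 of 14370 in the main test. IFIH1, which encodes the sensor MDA5 for long double-stranded RNA, stood at 13.0 ± 1.52 CPM with SETD8 and 9.90 ± 0.24 CPM with the vector (SD, n = 3 each; log2 fold change 0.39, edgeR adjusted p = 0.102). Its groups did not overlap.

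The enzymes that act on double-stranded RNA showed smaller differences. ADAR, which deaminates adenosine in such RNA, had 362, 378 and 366 CPM in SETD8 replicates 1, 2 and 3, against 389, 399 and 422 CPM in vector replicates 1, 2 and 3 (log2 fold change -0.13, 95% interval -0.30 to 0.04, edgeR adjusted p = 0.330). OAS3, a synthetase of the activator of RNase L, had 133, 126 and 141 CPM with SETD8, against 147, 160 and 143 CPM with the vector (log2 fold change -0.17, edgeR adjusted p = 0.231). Both genes were lower in each SETD8 library than in any vector library and did not pass the test. EIF2AK2, which encodes the kinase PKR that halts translation, had 97.5, 88.1 and 86.5 CPM with SETD8 and 78.1, 90.3 and 87.4 CPM with the vector, with overlap (log2 fold change 0.09, edgeR adjusted p = 0.568). OAS1 had 23 to 58 counts a library and no difference could be resolved (log2 fold change -0.10, 95% interval -0.78 to 0.58).

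**Figure D4:**
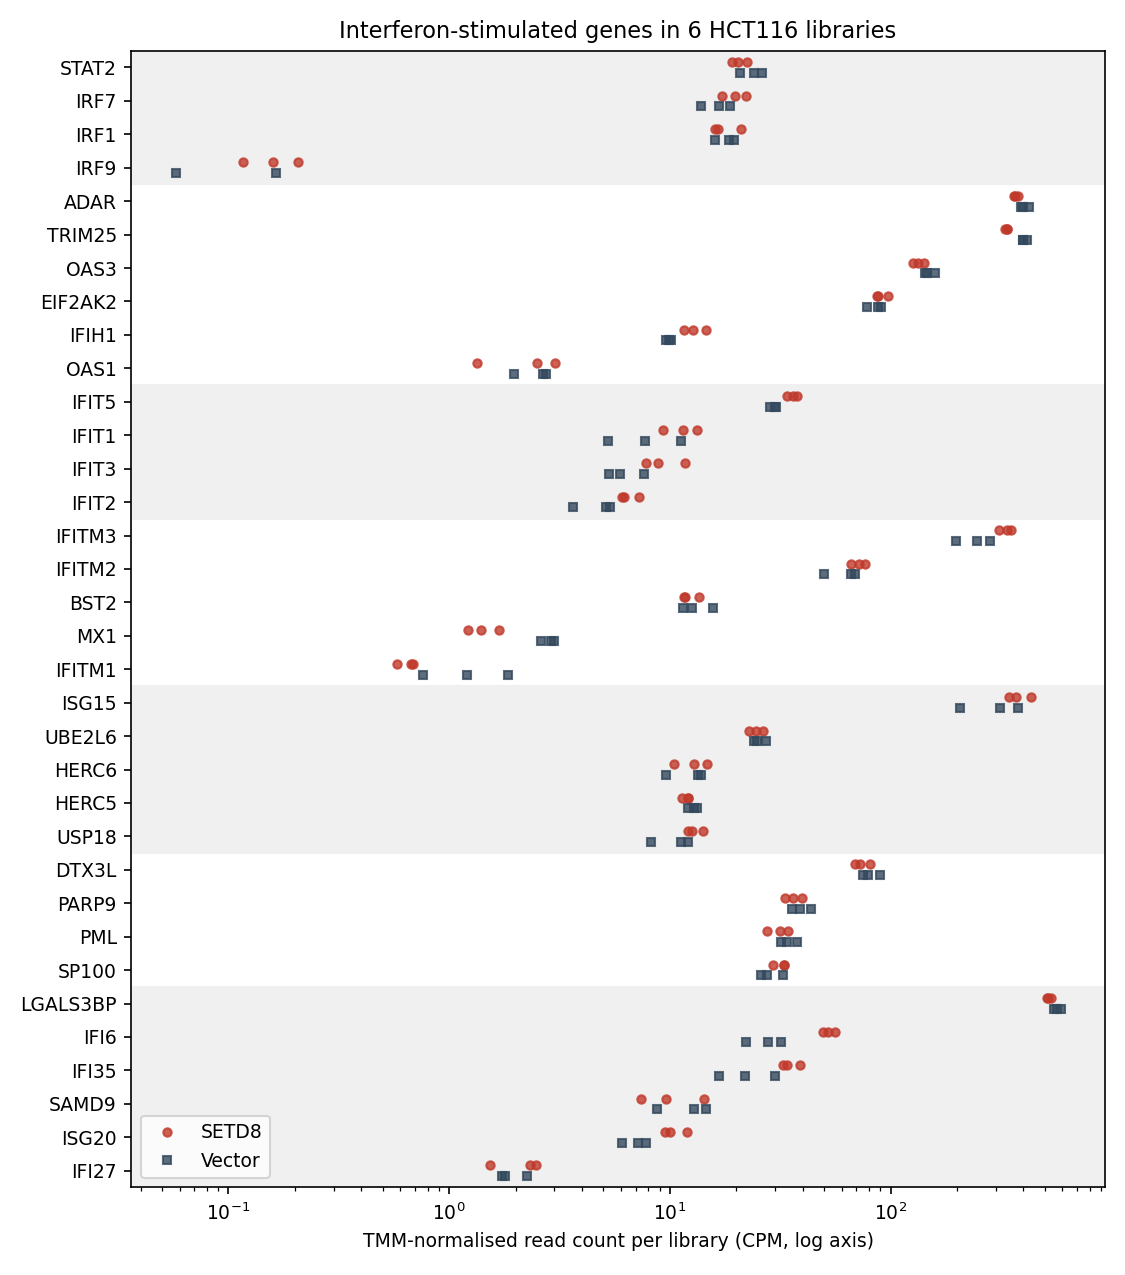
TMM-normalised CPM of the 34 members in each library on a log axis, in bands by role, with SETD8 libraries (red circles) above vector libraries (dark squares) for each gene. The vector library with 0 counts of IRF9 is not drawn. In IFI6 the SETD8 circles lie right of the vector squares, in MX1 they lie left of them, and IRF9 stands below 1 CPM in each library.

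None of the 3 tested transcription factor genes passed edgeR, DESeq2 or limma-voom. By each, 0 had an unadjusted p under 0.05, against 26.0% of all genes by edgeR. STAT2 had 20.4, 22.5 and 19.1 CPM in SETD8 replicates 1, 2 and 3, against 20.8, 26.2 and 24.1 CPM in vector replicates 1, 2 and 3 (log2 fold change -0.20, 95% interval -0.47 to 0.07, edgeR adjusted p = 0.334). IRF1, an early activator of interferon genes, had 17.9 ± 2.79 CPM with SETD8 and 18.0 ± 1.77 CPM with the vector (log2 fold change -0.01, 95% interval -0.31 to 0.29). IRF7, the factor that amplifies type I interferon output, had 19.7 ± 2.53 CPM with SETD8 and 16.4 ± 2.42 CPM with the vector (SD, n = 3 each; log2 fold change 0.26, 95% interval -0.05 to 0.57). The groups of these genes overlapped. IRF9 was listed with 3, 4 and 2 counts in SETD8 replicates 1, 2 and 3, against 3, 0 and 1 in vector replicates 1, 2 and 3. The whole principal transcript of IRF9 (1838 bases, 100%) lies under same-strand exons of another annotated gene, AL136295.5, which had 2, 5 and 2 counts with SETD8 and 9, 2 and 7 with the vector. Across the table, 616 of 645 protein-coding genes with at least 90% of the principal transcript under same-strand exons of another gene averaged below 1 CPM (95.5%), against 5398 of 12790 without exonic overlap (42.2%). The share was 93.1% (27 of 29) for genes covered to that extent by opposite-strand exons alone. Of the principal IRF1 transcript, 16.2% lies under opposite-strand exons of C5orf56. The sources do not state how reads on shared bases were counted, and the level of IRF9 messenger cannot be read from these counts.

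Genes of ADP-ribosylation and nuclear bodies did not pass, with 0 of 4 called by edgeR, DESeq2 or limma-voom. By each, 0 had an unadjusted p under 0.05, where 26.0% of all genes had one by edgeR. PARP9 and DTX3L encode partner proteins that modify histones and other proteins with ubiquitin and ADP-ribose. PARP9 had 36.2, 39.5 and 33.2 CPM in SETD8 replicates 1, 2 and 3, against 35.7, 39.0 and 43.8 CPM in vector replicates 1, 2 and 3. DTX3L had 72.7, 81.0 and 69.0 CPM with SETD8, against 74.7, 78.7 and 89.4 CPM with the vector. Both pairs of groups overlapped, and the log2 fold changes were -0.12 for PARP9 and -0.12 for DTX3L (edgeR adjusted p = 0.526 and 0.451). PML, which organises nuclear bodies, had 31.5, 34.3 and 27.5 CPM with SETD8, against 34.1, 37.7 and 32.0 CPM with the vector (log2 fold change -0.16, edgeR adjusted p = 0.420). SP100, a partner of PML there, had 32.8, 33.0 and 29.4 CPM with SETD8, against 25.8, 27.6 and 32.7 CPM with the vector (log2 fold change 0.15, edgeR adjusted p = 0.453). Their groups overlapped as well.

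Of the remaining members, LGALS3BP, a secreted glycoprotein gene, had 509, 532 and 518 CPM in SETD8 replicates 1, 2 and 3, against 589, 567 and 551 CPM in vector replicates 1, 2 and 3. The groups did not overlap and the difference did not pass (log2 fold change -0.13, 95% interval -0.31 to 0.05, edgeR adjusted p = 0.330). SAMD9, a restriction factor of poxviruses, ranged from 7.39 to 14.3 CPM with SETD8 and from 8.78 to 14.6 CPM with the vector (log2 fold change -0.21, edgeR adjusted p = 0.608), and its log2 fold change ran from -0.50 to -0.014 when 1 library was left out. IFI27, of the same family as IFI6, had 29 to 48 counts with SETD8 and 30 to 45 with the vector (log2 fold change 0.13, 95% interval -0.51 to 0.77, edgeR adjusted p = 0.818). IFI27 held 2 ISRE matches in its window and IFI6 held 3. Per kilobase of principal transcript, ISG15 stood highest with 536 CPM in SETD8 and 422 CPM in vector libraries, ahead of IFITM3 with 413 and 300 CPM per kilobase and LGALS3BP with 216 and 237.

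Calls were found among members with an ISRE match and among those without. Of the 19 with a match, 3 rose and 1 fell, with a median log2 fold change of 0.089, where 3.08% of all genes rose and 4.75% fell. Of the 9 without, 1 rose and 0 fell by edgeR, with a median of -0.048. The difference between these medians was not tested. The median coefficient of variation over tested members was 8.91% among SETD8 libraries and 12.6% among vector libraries, against 8.59% and 12.9% over all tested genes. Of the tested members, 11 had their lowest value in vector replicate 3 and 6 their highest, as did 3936 and 3856 of all 14370 genes. The 11 included each member called higher (IFI6, IFITM3, IFI35 and ISG20), and the 6 included MX1, the member called lower.

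Upstream of these genes, transcripts of the receptors, kinases and adaptors did not pass the test. The list of other interferon pathway genes held 94 genes, of which 64 were tested. Of those 64, 0 rose and 1 fell (1.56% called, against 7.83% of all genes), with a median log2 fold change of -0.050. This list is not only upstream genes, since 52 of the 94 were further interferon-stimulated genes outside the members. Of these, 37 were tested, 0 rose and 1 fell (2.70% called), with a median log2 fold change of -0.038. An unadjusted edgeR p under 0.05 was reached by 18 of the 64 (28.1%), against 26.0% of all genes. DESeq2 called 1 higher and 3 lower of the 59 to which it gave an adjusted p (6.78%, against 11.6% of all genes), and limma-voom called 1 higher and 1 lower of 64 (3.13%, against 7.59%). The gene that fell was HELZ2, one of the further interferon-stimulated genes, which encodes a helicase and nuclear receptor coactivator. It had 53.4, 68.3 and 57.9 CPM in SETD8 replicates 1, 2 and 3, against 81.5, 103 and 108 CPM in vector replicates 1, 2 and 3 (log2 fold change -0.71, SE 0.12, edgeR adjusted p = 0.00807). HELZ2 lost its call when SETD8 replicate 1 or 3 was left out (edgeR adjusted p = 0.0620 and 0.0617) and when vector replicate 2 was (0.0666). None of 9 interferon genes was tested, and each had at most 5 counts in any library. IFNL1, a type III interferon gene, had 1, 0 and 5 counts in SETD8 replicates 1, 2 and 3, against 0 in each vector library. The receptor gene IFNAR1 stood at 32.4 ± 1.48 CPM with SETD8 and 30.3 ± 1.99 CPM with the vector (log2 fold change 0.10, 95% interval -0.13 to 0.32). IFNLR1, the receptor chain for type III interferon, stood at 17.0 ± 2.45 CPM with SETD8 and 13.2 ± 2.17 CPM with the vector (log2 fold change 0.37, edgeR adjusted p = 0.154). IFNAR2, with 67.8% of its principal transcript under same-strand exons of AP000295.1, was listed at 7, 15 and 8 counts with SETD8 and 10, 2 and 6 with the vector. The class of genes summarised beside IRF9 began at 90% cover and leaves out IFNAR2. How reads on shared bases were counted is not stated, so the IFNAR2 messenger level cannot be read from these counts.

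The kinase genes JAK1 (log2 fold change -0.29, edgeR adjusted p = 0.0851) and TYK2 (-0.31, edgeR adjusted p = 0.0856) were lower in each SETD8 library than in any vector library and missed the threshold. Both passed as lower without vector replicate 1 (edgeR adjusted p = 0.0104 for JAK1 and 0.00576 for TYK2). In that setting 1738 of all 14715 genes were called lower, against 682 of 14370 in the main test. JAK1 stood at 89.4 ± 4.30 CPM with SETD8 and 110 ± 13.7 CPM with the vector, and TYK2 at 51.7 ± 1.39 CPM with SETD8 and 63.9 ± 8.27 CPM with the vector (SD, n = 3 each). Of the sensing pathway, MAVS (log2 fold change 0.01), RIGI (-0.14) and IRF3 (0.19) did not pass (edgeR adjusted p = 0.935, 0.614 and 0.302). STING1, the adaptor for cytosolic DNA, had 10.3, 11.0 and 7.62 CPM with SETD8, against 12.5, 15.6 and 13.1 CPM with the vector (log2 fold change -0.51, edgeR adjusted p = 0.0723). CGAS, the DNA sensor upstream of STING1, had at most 1 count in any library, below the 3-count floor.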

How the data were processed

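Poly(A)-selected, strand-marking libraries of HCT116 RNA were sequenced, per the labels' protocols. The authors deposited raw read counts for each gene. Of tools and builds, the submitters' processing notes list STAR, HISAT2, HTSeq, featureCounts, hg38 and GRCh38 without saying what each did, and no source used here states the annotation or strand setting. Columns named NC were taken as the vector group, the only other label, and 0 columns belonged to other samples. All 58735 gene IDs were in GENCODE 29, and 0 rows lacked an ID.

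Genes were filtered with filterByExpr (14370 kept, with about 99.9% of the counts), scaled by TMM and tested two-sided with the robust quasi-likelihood method of edgeR and no covariates (edgeR 4.0.16, limma 3.58.1, DESeq2 1.42.0, R 4.3.3). P-values were adjusted by Benjamini-Hochberg across every gene tested, and 0.05 was the threshold. The test was checked on simulated data. SE is the size of the log2 fold change divided by the square root of F, and 95% intervals use the degrees of freedom of the edgeR test. Log CPM used a prior count of 2. Principal transcripts follow APPRIS rank, then length.

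Members, lists and tests were chosen with earlier results of these data known. Named were all members, called members and those of mean CPM of at least 20 with each library's value (some others were given so too), and of the pathway list the called genes and 11 fixed genes, of which 1 is not reported here. Alternatives were DESeq2-type size factors, library totals, no filter or a stricter one (every library of a group at 1 CPM or more), DESeq2, limma-voom, a replicate block, lowess (span 0.3) corrections of length and GC trends, and leaving out each library. The length and GC corrections used the longest transcript of each gene. Figures used matplotlib 3.10.9.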

Additional observations from a re-analysis of the deposited data

How the results depend on the processing

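Each of the 33 tested members and KMT5A was recomputed under up to 15 alternatives, which gave 509 values. Of these, 477 kept the direction of a call and the side of the threshold, 25 lost a call, 7 gained one and 0 reversed a call. Most of the 477 belong to the 28 members without a call, where a change of sign was also counted as kept. The 25 losses fell on genes with a call to lose. Of 15 alternatives, IFI6 kept its call in 15, IFITM3, IFI35 and KMT5A in 11 each, ISG20 in 10 and MX1 in 7. The depth limits IFITM1, MX1, OAS1 and IFI27, which had 10 to 58 counts a library. Over all genes, calls were 792 higher with library totals, 949 higher and 1051 lower with no low-count filter, and 678 higher with DESeq2. Leaving out a library gave 1 to 1771 higher and 10 to 1738 lower genes. Members called higher numbered 1 to 5 when a library was left out, and members called lower 0 to 2. Members called lower were 0 with library totals and 2 with GC correction. The median of the members ran from -0.0011 (without SETD8 replicate 2) to 0.12 (without vector replicate 2). Other pathway genes called higher were 1 with DESeq2-type size factors, no filter, the stricter filter, DESeq2, limma-voom, length correction, and 2 with library totals or GC correction. Those called lower were 4 with no filter, 2 with the stricter filter, 3 with DESeq2, 6 with length correction and 2 with GC correction. Leaving out a library gave 0 to 5 higher and 0 to 10 lower pathway genes. Without LGALS3BP, the most abundant member by CPM, the members summed to 2213 CPM with SETD8 and 2097 CPM with the vector. The cause of these changes was not tested.

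Replicate numbers did not pair the libraries, as the deviations of same-numbered libraries correlated at 0.025, 0.0078 and -0.064. With a replicate block there were 532 higher and 645 lower genes, 4 higher and 0 lower members (median log2 fold change 0.046), and 1 higher and 1 lower pathway gene. MX1 was the member that lost its call under the block (edgeR adjusted p = 0.0597).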
